A study of Mus musculus with 14 samples.

Results

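4632432E15Rik is a mouse gene with no named product, and it was chosen because its RNA was much more abundant in the spleen and the ovary of L2-fKO mice than in those of wild-type mice. It is 1 gene of the 49315 in the spleen count table, and it was taken by its symbol and its Ensembl identifier, ENSMUSG00000102705. The levels and fold changes of 4632432E15Rik itself chose it, so they are given as a description, with no test. The genes beside it on the chromosome and the genes that resemble it in sequence were not chosen by their levels, and these were tested.

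L2-fKO mice carry *Zfp36l2*-/- with the CMV-Cre transgene, and the sample labels call them L2-cKO. Both alleles had loxP sites around exon 2 of *Zfp36l2*, and the CMV promoter drives Cre early and in all tissues, so the loss is not limited to a cell type. The wild-type mice were littermates with both normal copies of *Zfp36l2* that also carried CMV-Cre, so every animal had the transgene. Poly(A) RNA was sequenced from 4 wild-type spleens (2 female, 2 male), 4 L2-fKO spleens (1 female, 3 male), 3 wild-type ovaries and 3 L2-fKO ovaries of age-matched young mice, for which the labels give no ages. The labels name the spleen samples as spleen organoid. L2-fKO spleen 3 and L2-fKO ovary 1 came from the same mouse. The libraries held 39138010 to 45167464 counted reads in the spleen and 31052510 to 44270070 in the ovary.

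ZFP36L2 is an RNA-binding protein of the tristetraprolin family. Its zinc fingers bind AU-rich elements, usually in the part of an mRNA after the coding sequence, and the bound mRNA is then shortened from its tail and degraded. RNAs that ZFP36L2 destabilizes are therefore looked for among those that are more abundant where it is missing. 4632432E15Rik belongs to the annotation class TEC, whose members await experimental proof and have no protein assigned.

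In the mouse genome build GRCm38 with the GENCODE vM21 annotation, 4632432E15Rik lies on the minus strand at chr3:10220995-10223433. It has a single exon of 2439 bases, and 0 annotated genes overlap it on either strand. *Fabp4*, the fatty acid binding protein of adipocytes, macrophages and endothelium, lies 12419 bases away on one side, and a short pseudogene, Gm37421, and *Fabp12* lie on the other. *Zfp36l2* is on another chromosome, at chr17:84183931-84187947.

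The transcript begins and ends with the same 54 bases. The first 30 bases of each copy are shown because the repeat is the feature that sets this transcript apart from most others; they are on the minus strand at chr3:10223404-10223433 and chr3:10221019-10221048, read from the GENCODE vM21 transcript, and the capital is the base that differs.
4632432E15Rik, bases 1 to 30: ggttcttcttttgcctatgcaatTaatgct
4632432E15Rik, bases 2386 to 2415: ggttcttcttttgcctatgcaatCaatgct
The copies are 96.3% identical over their 54 bases, with the differences T24C and C42T, where positions are counted from the start of each copy and the base of the first copy stands first. A repeat of this kind, with at least 30 bases from the start found again in the last 100 bases with at most 2 mismatches, is in 27 of 131058 annotated transcripts of 300 bases or more (0.0206%) and in 3 of 3189 TEC transcripts of that length. As background, the RNAs of retrotransposons with long terminal repeats start and end in the same sequence. Whether 4632432E15Rik is such an element was not tested.

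The letters of the AU-rich element were searched on both strands of the transcript. The pentamer ATTTA occurs 0 times on the transcript strand and 2 times on the other strand, and the heptamer TATTTAT, which contains the pentamer, occurs 0 times on either. Of 914 other TEC transcripts within 20% of its length, 96% hold at least 1 ATTTA and 46.4% at least 1 TATTTAT. The polyadenylation hexamer AATAAA occurs 5 times, the last at base 2421 of 2439. These matches describe the annotated transcript and say nothing of bases beyond its ends.

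Reads of 4632432E15Rik were near 0 in wild-type spleen. The 4 wild-type libraries held 1, 0, 1 and 4 reads, and the 4 L2-fKO libraries held 116, 65, 113 and 85 reads. The library with 0 reads allows up to 3 reads, or 0.0688 reads per 1000000 counted reads (RPM). No wild-type spleen came near an L2-fKO spleen, and the lowest L2-fKO library was 17.8 times the highest wild-type library after normalization.

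In RPM the level was 0.0339 ± 0.0385 (SD, n = 4) in wild-type and 2.21 ± 0.523 (n = 4) in L2-fKO spleen. The fitted log2 fold change of L2-fKO over wild type was 5.91 (SE 0.54), the rank 4 among 16911 genes tested, and it was 6.96 without wild-type spleen 4, which held 4 of the 6 wild-type reads, and 4.83 with a prior count of 2. Summed over libraries, 379 reads stood against 6, a ratio of 64.6 with a 95% exact interval from 29.4 to 177 that covers counting error only. The gene passed the filter of at least 10 reads in at least 4 libraries only through its L2-fKO libraries.

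**Figure D1:**
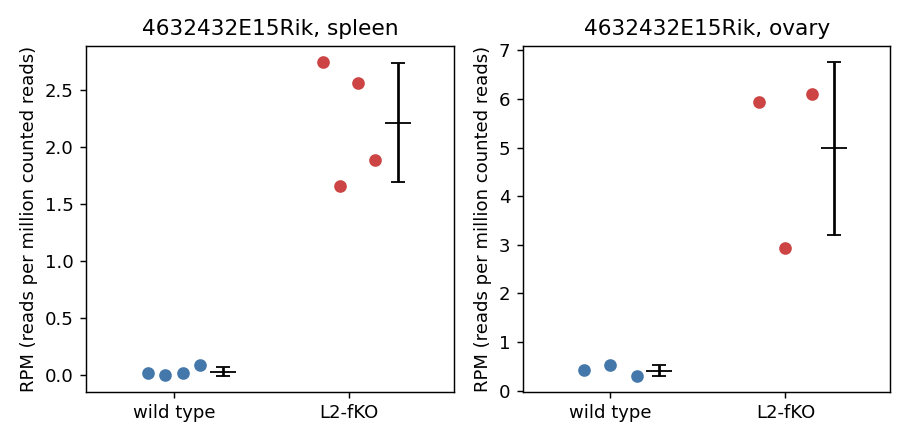
Level of 4632432E15Rik in each library, in RPM, for spleen (left) and ovary (right); points are libraries, and the bar beside each group is its mean ± SD. Every L2-fKO point lies above every wild-type point, with means of 2.21 against 0.0339 in the spleen and 4.99 against 0.414 in the ovary.

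In the ovary the same RNA had a higher starting level. The wild-type ovaries held 13, 23 and 12 reads, recovered from the authors' normalized values, and the L2-fKO ovaries 257, 106 and 196. In RPM this was 0.414 ± 0.108 (SD, n = 3) and 4.99 ± 1.78 (n = 3). The groups did not overlap, and L2-fKO ovary 2 was the lowest of its group, at 2.93 RPM against 5.93 and 6.10 in the other libraries.

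On the scale of log2(normalized count + 1) the ovary change was 3.48 (SE 0.36), rank 12 of 18504 genes tested. The summed reads, 559 against 48, gave a ratio of 12.2 with a 95% exact interval from 9.07 to 16.7 for counting error. The ratio was smaller than in the spleen, and both the wild-type and the L2-fKO level were higher.

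Ordered by level, the groups were wild-type spleen (0 to 0.0893 RPM), wild-type ovary (0.304 to 0.520), L2-fKO spleen (1.66 to 2.75) and L2-fKO ovary (2.93 to 6.10). No neighbours in this order overlapped, though levels were set across tissues only by each library's total and the comparison between tissues is a description. With RPM divided also by the transcript length in kilobases, the level was 0.907 ± 0.214 (SD) in L2-fKO spleen and 2.04 ± 0.731 in L2-fKO ovary. On this scale the L2-fKO level exceeded that of 28.1% of the tested genes in the spleen and of 35.8% in the ovary.

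Both sexes showed the difference in the spleen. Normalized counts were 0.943 to 0.994 in the 2 wild-type females and 0.00 to 4.04 in the 2 wild-type males. The L2-fKO female had 123 and the 3 L2-fKO males had 72.0 to 121. The mouse that gave both tissues, which was that female, had 2.56 RPM in its spleen and 5.93 in its ovary.

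*Zfp36l2* itself was lower in every L2-fKO library. Its normalized count was 4362 to 7394 in wild-type and 278 to 405 in L2-fKO spleen, a log2 fold change of -4.08 (SE 0.21, edgeR adjusted p = 8.84e-06). In the ovary it was 4745 to 4906 against 758 to 1011, a log2 fold change of -2.40 (SE 0.12, limma adjusted p = 0.000578). Reads outside the deleted exon count toward these levels, and where on the gene the remaining reads lie was not tested.

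The tissues hold several cell types whose RNA can differ in share, and fewer cells of a type and less RNA per cell cannot be told apart in these libraries. In the spleen, the 6 megakaryocyte and platelet markers summed to 518 to 1020 RPM in wild type and 22.6 to 30.5 in L2-fKO, and 6 of 6 were downregulated. The 6 neutrophil markers summed to 2730 to 5090 and 179 to 1100, with 6 of 6 downregulated, and 4 of the 6 mast cell and basophil markers were upregulated, though their sums overlapped at 25.9 to 40.6 in wild type and 32.6 to 222 in L2-fKO. A gene was called where its adjusted p was below 0.05 and its log2 fold change above 1 in size, as for 6.01% of all spleen genes tested, with 2.9% upregulated and 3.11% downregulated.

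The macrophage markers overlapped between the spleen groups (643 to 1020 and 988 to 2040 RPM), as did those of endothelium (295 to 434 and 392 to 740), B cells, T cells and erythroid cells, and 0 markers of these lists were called by edgeR. At an unadjusted p below 0.05 there were 3 of 6 in the macrophage list, 2 of 6 in the endothelium list, 1 of 6 in the erythroid list and 0 in those of B and T cells, where 29.0% of all spleen genes tested lay below this limit. Of the 6 fibroblast and stroma markers, 2 were upregulated in the spleen, and 3 of the 4 tested pancreatic acinar markers were downregulated there, with summed levels of 39.0 to 325 and 32.5 to 44.8. The part of these shifts in the level of 4632432E15Rik was not tested.

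In the ovary the oocyte markers were at 2800 to 2950 RPM in wild type and 2430 to 2900 in L2-fKO, so these groups overlapped, as did the granulosa markers at 1840 to 2130 and 947 to 1960. Endothelial markers were at 371 to 383 and 446 to 504, T cell markers at 3.95 to 4.56 and 7.80 to 11, mast cell and basophil markers at 31.4 to 51.5 and 13.1 to 29.8, and pancreatic acinar markers at 34.7 to 41.6 and 15.1 to 17.2, each without overlap. Among single genes, 13.2% of all ovary genes tested had every L2-fKO library above every wild-type library, and the share in the other direction was not counted. Of all the marker lists, 1 gene, in the T cell list, was called in the ovary, where 0.957% of all genes tested were called (0.73% upregulated and 0.227% downregulated). At an unadjusted limma p below 0.05 there were 5 of 6 in the endothelium list, 3 of 6 each in the oocyte, macrophage and erythroid lists and 3 of 4 tested in the mast cell and basophil list, against 16.8% of all ovary genes tested. The B cell list had 2 of 5 tested, the T cell list 1 of 3, the fibroblast and stroma list 1 of 6 and the pancreatic acinar list 1 of 4. There were 0 in the granulosa, theca and steroid, surface epithelium and oviduct, neutrophil, and megakaryocyte and platelet lists. In the spleen the oocyte markers summed to at most 0.632 RPM and the granulosa markers to at most 1.95, near 0.

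The genes around 4632432E15Rik were taken by position alone. Of the 37 annotated genes that start within 1 Mb of it, 10 were tested in each tissue. In the spleen 1 of these 10 was upregulated (10%), *Fabp5*, against 2.9% of all spleen genes tested, and 0 were downregulated. At an unadjusted edgeR p below 0.05, 4 of the 10 were higher there (40%, against 14.4% of all spleen genes tested) and 1 was lower. In the ovary 0 of 10 were called by limma, edgeR or DESeq2 (the latter pair on the recovered reads). There 1 had an unadjusted limma p below 0.05 (10%, against 16.8% of all ovary genes tested), and the log2 fold changes ran from -0.63 to 0.59.

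*Fabp5*, a fatty acid binding protein of epidermis, macrophages and other cells, lies on the plus strand, and its near end is 204388 bases from 4632432E15Rik. Its normalized counts in wild-type spleen were 1562, 2209, 3153 and 2002, and in L2-fKO spleen 9354, 8258, 11155 and 5002. The groups did not overlap, and the log2 fold change was 1.92 (SE 0.27, edgeR adjusted p = 0.00198). In the ovary the counts were 1531, 1412 and 1331 in wild type and 1723, 1218 and 1582 in L2-fKO, which overlapped, with a log2 fold change of 0.07 (SE 0.13, limma adjusted p = 0.831).

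The difference between the tissues was itself tested, by edgeR with a term for genotype by tissue, a test chosen after the data were seen. For *Fabp5* the ovary change was lower than the spleen change by a log2 difference of -1.86 (SE 0.35, edgeR adjusted p = 0.00587). For *Fabp4* this difference was -1.67 (SE 0.54, edgeR adjusted p = 0.0809), which missed the threshold. Of the 15310 genes in this fit, 1023 had an edgeR adjusted p below 0.05 for this term. All ovaries came from females and the spleens from both sexes, and sex was not in the fit. The fit took its 14 libraries as independent, although 13 animals gave them. Without L2-fKO spleen 3 or L2-fKO ovary 1, which came from 1 mouse, the *Fabp5* difference was -1.69 and -1.97 (edgeR adjusted p = 0.00897 and 0.0114), and that of *Fabp4* was -1.52 and -2.09 (edgeR adjusted p = 0.126 and 0.0436), so it passed the threshold without L2-fKO ovary 1.

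*Fabp4*, the closest tested gene, had normalized counts of 265, 182, 119 and 175 in wild-type and 334, 205, 531 and 581 in L2-fKO spleen. These groups overlapped, and the log2 fold change of 1.16 (SE 0.34) missed the threshold at an edgeR adjusted p of 0.0522. It was called with DESeq2 (adjusted p = 0.00686), without the filter on low counts, and in edgeR without wild-type spleen 1 (log2 fold change 1.38) or L2-fKO spleen 2 (1.37). In the ovary its counts were 440, 376 and 336 against 408, 137 and 270, a log2 fold change of -0.63 (SE 0.36, limma adjusted p = 0.429).

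**Figure D2:**
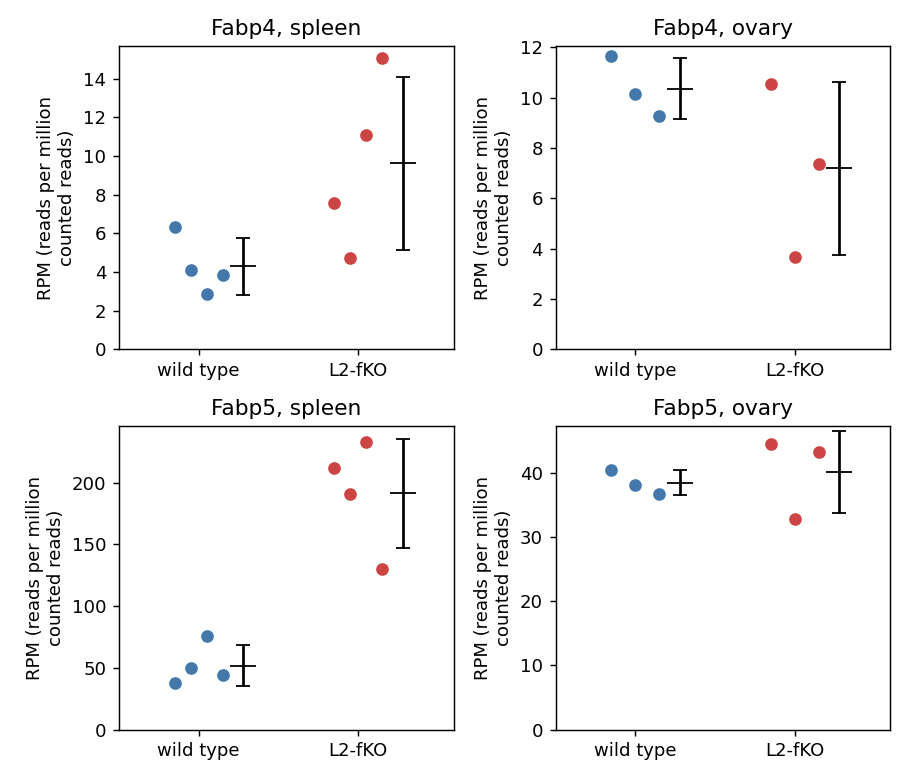
Levels of *Fabp4* (top) and *Fabp5* (bottom) in each library, in RPM, for spleen (left) and ovary (right); points are libraries and bars are means ± SD. In the spleen the *Fabp5* groups are apart, at means of 51.8 and 191, and in the ovary the groups of both genes overlap.

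The other tested genes within 1 Mb had smaller changes in the spleen than *Fabp5* and *Fabp4*. *Gm9833*, annotated as protein coding, had a spleen log2 fold change of 0.54 (SE 0.21), and *Impa1*, an inositol monophosphatase, had 0.09 (SE 0.11). *Zfand1*, a zinc finger protein, was at 911 ± 93.4 (SD, n = 4) in wild-type and 648 ± 41.9 in L2-fKO spleen, and its log2 fold change of -0.49 (SE 0.11, edgeR adjusted p = 0.0214) lay under the fold limit. *Snx16*, a sorting nexin, had 0.46 (SE 0.16) and *Chmp4c*, a subunit of the membrane scission complex ESCRT-III, had 0.05 (SE 0.36).

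*Pag1*, an adaptor of lymphocyte signalling, had 0.05 (SE 0.17) and *Zfp704*, a zinc finger protein, had -0.01 (SE 0.19). The fifth tested gene on the far side was *Lrrcc1*, a centrosome protein, in the spleen (-0.41, SE 0.13) and the pseudogene *Gm8935* in the ovary (1.22, SE 0.39), each over 1 Mb away. Neither passed the test, at an edgeR adjusted p of 0.0599 and a limma adjusted p of 0.177.

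**Figure D3:**
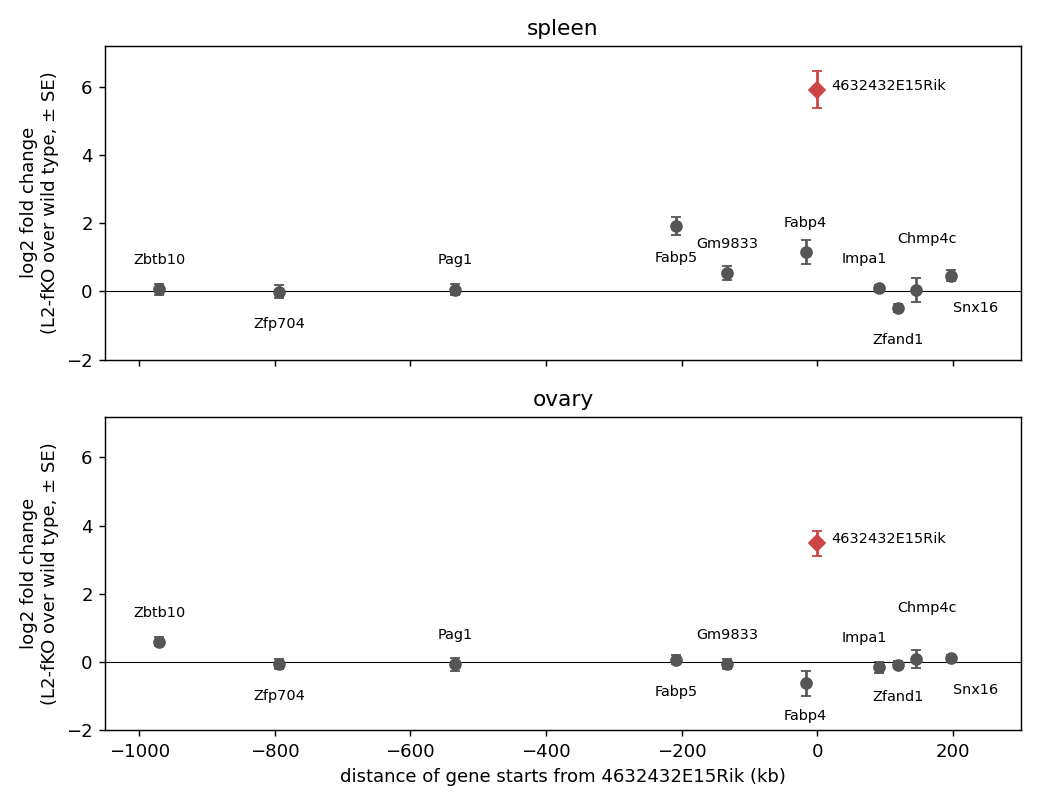
Log2 fold change of L2-fKO over wild type (± SE) for the tested genes that start within 1 Mb of 4632432E15Rik, against the distance of the gene starts in kb, in spleen (top) and ovary (bottom); the diamond is 4632432E15Rik. It lies at 5.91 and 3.48, while the 10 neighbours lie between -0.49 and 1.92 in the spleen and between -0.63 and 0.59 in the ovary.

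The genes around *Zfp36l2* were looked at in the same way. Of the genes within 5 Mb of it, itself left out, 3 of 52 were called in the spleen (5.77%, against 6.01% of all genes), and 0 of 55 were called in the ovary by limma and by edgeR, and 1 by DESeq2, with 8 at an unadjusted limma p below 0.05 (14.5%, against 16.8% of all genes). In the class TEC without 4632432E15Rik, 5 of 251 genes tested were upregulated in the spleen (1.99%, against 2.9% of all genes) and 18 were downregulated (7.17%, against 3.11%). In the ovary 2 of 378 were upregulated (0.529%, against 0.73%) and 0 downregulated (against 0.227%), with 25 higher and 19 lower at an unadjusted limma p below 0.05.

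Parts of the 4632432E15Rik transcript occur in other annotated transcripts. A search of all GENCODE vM21 transcripts (BLAST, E value at most 1e-10) found 234 other genes with a similar transcript, 141 with their longest match on the same strand as 4632432E15Rik and 93 on the opposite strand. Over the genes on the same strand, these matches ran from 52 to 1450 bases and from 63.0% to 96.6% identity. A similar transcript is thus one that shares a stretch, which can be short. This list was drawn up after the data were seen, from sequence alone. The longest match was a retained-intron transcript of *Slc38a1*, a glutamine transporter gene on chromosome 15, with 96.6% identity over 1450 bases (bases 1000 to 2439 of 4632432E15Rik).

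Reads that fit more than 1 place were not counted, so reads of 4632432E15Rik that also fit another copy are missing from its level, and reads of an unannotated copy cannot be told apart from it where the copies are alike. The level of 4632432E15Rik is uncertain to that extent. *Slc38a1* itself had normalized counts of 4154 ± 561 (SD, n = 4) in wild-type and 4437 ± 541 in L2-fKO spleen (log2 fold change 0.10, SE 0.13, edgeR adjusted p = 0.667). In the ovary it had 4505 ± 37.2 (n = 3) and 4968 ± 562, a log2 fold change of 0.13 (SE 0.09, limma adjusted p = 0.503). These counts are of the whole gene, with 17236 bases of exon, while the match is to 1 transcript of 4831 bases. Whether that transcript alone changed was not tested.

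In the ovary, many of the similar transcripts on the same strand were upregulated as well. Of 50 genes tested, 14 were upregulated (28%) and 0 downregulated, where 0.73% of all ovary genes tested were upregulated. Of 41 tested genes with a match on the opposite strand, 1 was upregulated (2.44%) and 0 downregulated. Without the adjustment, at a limma p below 0.05, 25 of the 50 were higher (50%) and 0 lower, where 9.88% of all ovary genes tested were higher at this limit, and edgeR and DESeq2 also called 0 of them downregulated. The median log2 fold change was 0.42 over the genes on the same strand, 0.10 over those on the opposite strand and near 0 (-0.00425) over all genes.

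Some of these genes could have entered the test through their L2-fKO libraries alone. Among the 45 on the same strand with a normalized count of at least 10 in every wild-type ovary, 13 were upregulated (28.9%), against 0.639% of the 17373 such genes in all. With a stricter limit of 80% identity over at least 100 bases, 10 of 22 were upregulated. Leaving out 1 library lowered both the number of similar genes on the same strand and the number of all genes upregulated in the ovary: without wild-type ovary 1, 2 or 3 the test called 3 of the similar genes upregulated each time (*Gm15389*, *Bglap3* and *Gm12424*), of 39, 28 and 33 upregulated genes in all, and without L2-fKO ovary 1, 2 or 3 it called 8, 11 and 5, of 78, 127 and 76. Noncoding genes without a similar transcript (lincRNA, TEC, antisense and processed transcript) were upregulated in 10 of 2002 cases (0.5%).

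Similar transcripts on either strand made up 15 of the 135 upregulated ovary genes (11.1%), while they were 0.492% of the genes tested. Of the 13 long intergenic noncoding RNA genes upregulated in the ovary, 8 were similar to 4632432E15Rik on the same strand, and these were 8 of the 14 such lincRNA genes tested. The genes are not independent of each other, since they share sequence, and reads of one copy may be counted at another.

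The upregulated genes matched particular stretches of 4632432E15Rik. Of the genes whose match lay within bases 1 to 300, 8 of 24 on the same strand were upregulated in the ovary, and of those within bases 1000 to 1500, 6 of 7. With a normalized count of at least 10 in every wild-type ovary these were 8 of 24 and 5 of 6, since *Gm12590*, at 3.65 to 5.01 in wild-type and 15.2 to 28.5 in L2-fKO ovaries, entered the test through its L2-fKO libraries alone. Of those within bases 1800 to 2439, 0 of 9 were called, and 1 had an unadjusted limma p below 0.05. These stretches were set after the matches were seen.

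**Figure D4:**
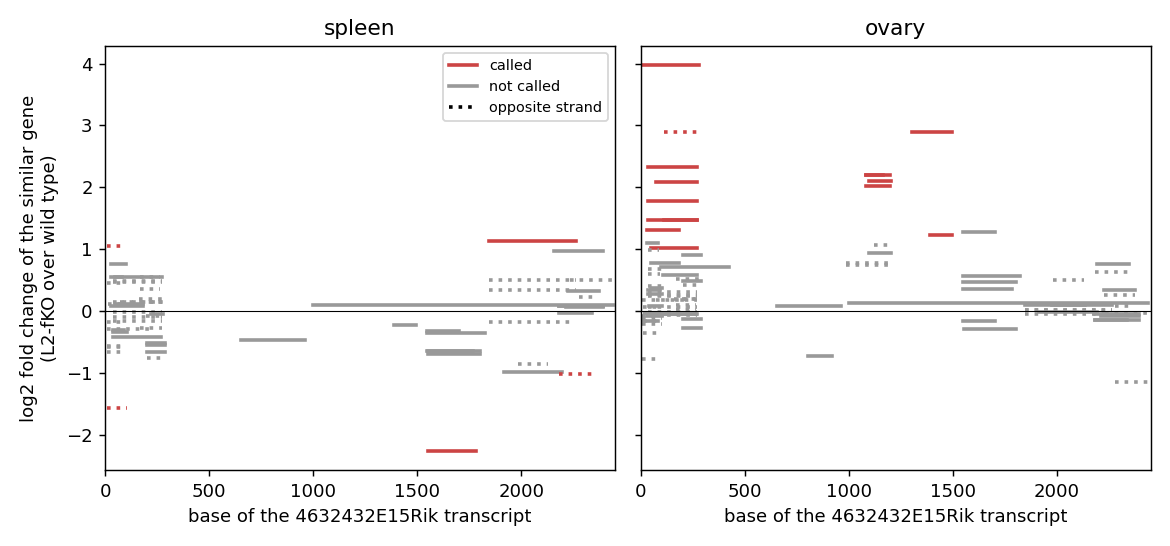
Genes with a transcript similar to 4632432E15Rik in spleen (left) and ovary (right). Each line spans the bases of 4632432E15Rik that the gene matches, at the height of its log2 fold change of L2-fKO over wild type, with solid lines for the same strand, dotted lines for the opposite strand and red for called genes. In the ovary the called genes lie above 1 within bases 1 to 300 and 1000 to 1500, and 0 of those that match after base 1800 are called.

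In the first stretch, 7 of the upregulated genes share the 30 bases below without a gap, shown because they are the window common to most of them. The windows of this and the other stretch were picked from the upregulated genes alone, and the remaining similar genes were not searched for them. The same-strand matches of *Xdh* and *Olfr976* also span bases 146 to 175, and neither was called in the ovary (log2 fold changes -0.05 and -0.06). Capitals mark bases that differ from 4632432E15Rik. The sequences are from GENCODE vM21 transcripts and each is written 5′ to 3′ along its own strand.
4632432E15Rik, chr3:10223259-10223288, minus strand, bases 146 to 175: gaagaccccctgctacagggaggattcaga
Gm15389, chr1:107687192-107687221, plus strand: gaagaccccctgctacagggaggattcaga
Gm11261, chr4:78661321-78661350, minus strand: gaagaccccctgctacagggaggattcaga
Gm11815, chr4:10489215-10489244, minus strand: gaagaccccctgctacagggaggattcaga
Gm15298, chrX:141902131-141902160, minus strand: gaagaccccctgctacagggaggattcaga
Gm11851, chr4:17657729-17657758, minus strand: gaagaccccctgTtacagggaggattcaga
Aen, chr7:78899466-78899495, plus strand: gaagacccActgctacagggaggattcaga
Gm15758, chr8:54709244-54709273, plus strand: gaagacccGctgctacaggAaggattcaga
In the window, 4 of the 7 were identical to 4632432E15Rik, and the others had 1 or 2 differences.

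In the other stretch, 4 upregulated genes share a window in which they are identical to each other and differ from 4632432E15Rik at the same 2 bases.
4632432E15Rik, chr3:10222308-10222337, minus strand, bases 1097 to 1126: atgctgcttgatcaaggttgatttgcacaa
Gm12590, chr11:121882760-121882789, minus strand: atgctgcttgGtcaaggtCgatttgcacaa
1700066C05Rik, chr16:80000088-80000117, plus strand: atgctgcttgGtcaaggtCgatttgcacaa
Gm12424, chr4:47101032-47101061, plus strand: atgctgcttgGtcaaggtCgatttgcacaa
Gm47354, chr10:48535303-48535332, minus strand: atgctgcttgGtcaaggtCgatttgcacaa
The 14 genes on the same strand lie on 9 chromosomes. Their matches cover from 6.31% (*Ifi203*) to 57.0% (*Aen*) of the matching transcript, and reads from the rest of a gene count toward its level too.

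*Gm15389*, a lincRNA with 86.4% identity to bases 10 to 280, had the largest change of these genes. Its normalized counts were 148, 161 and 142 in wild-type and 1538, 4546 and 1922 in L2-fKO ovaries, a log2 fold change of 3.97 (SE 0.36, limma adjusted p = 0.00451). In all 8 spleens together it had 1 read. 4632432E15Rik was lowest, and *Gm15389* highest, in L2-fKO ovary 2 among the L2-fKO ovaries.

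*Bglap3*, of the osteocalcin gene cluster, whose members are near-identical so that its reads are uncertain, was at 28.1 normalized counts in wild type and 210 in L2-fKO ovary, a log2 fold change of 2.89 (SE 0.24, limma adjusted p = 0.00401). *Gm11851*, *Gm12590*, *Gm47354*, *Gm12424*, *Gm11815* and *1700066C05Rik* had log2 fold changes of 2.33, 2.20, 2.20, 2.11, 2.09 and 2.01. *Gm15758*, *Gm11261*, *Gm15298*, *Ifi203*, *E330020D12Rik* and *Aen* had 1.78, 1.47, 1.46, 1.30, 1.23 and 1.02, with limma adjusted p from 0.00401 to 0.0379 over the 14 genes. The change of *Gm12590* was 1.21 with a pseudocount of 10.

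All but a few of these are noncoding. The coding exceptions are *Bglap3*, *Aen*, an exonuclease induced in apoptosis, and *Ifi203*, of the interferon-inducible p200 family, and the match of *Aen* is to a short transcript of 393 bases rather than to its whole coding mRNA. *Aen* was at 2673 normalized counts in wild type and 5430 in L2-fKO ovary. The gene on the opposite strand was the TEC gene *Gm42900*, at 13.2 and 105, a log2 fold change of 2.90 (SE 0.25, limma adjusted p = 0.00403).

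Some of the upregulated genes overlap others. *Gm42900* lies on the same strand as *Tgfbr3* (log2 fold change 0.13, limma adjusted p = 0.637), *Ifi203* as *Mndal* (0.57, limma adjusted p = 0.147) and *Gm12424* as *Galnt12* (0.74, limma adjusted p = 0.0373, under the fold limit), and *Gm11815* as *1700123O12Rik*. *Gm15758* overlaps *Wdr17* on the other strand (-0.55, limma adjusted p = 0.443). Reads shared with an overlapping gene on the same strand cannot be told apart where exons coincide.

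**Figure D5:**
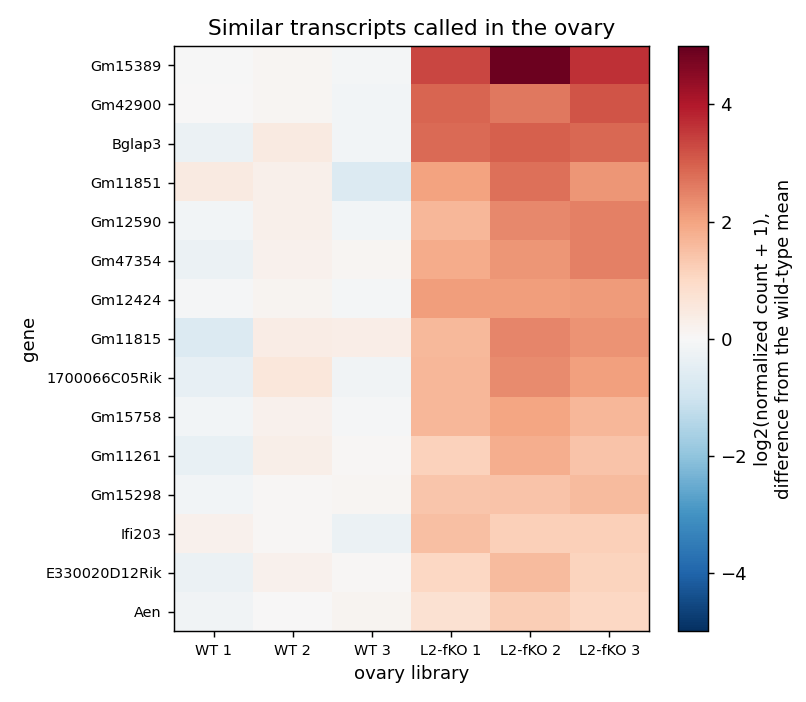
The 15 similar transcripts called in the ovary (rows) in each ovary library (columns). Colour is log2(normalized count + 1) minus the gene's wild-type mean, from -0.68 to 0.56 in wild-type and from 0.77 to 4.91 in L2-fKO libraries, so that each of these called genes is higher in every L2-fKO library than in any wild-type library, as were 26 of the 50 similar genes tested on the same strand (52.0%) and 13.2% of all ovary genes tested.

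In the spleen fewer of the similar transcripts could be tested. Of 29 tested genes on the same strand, 1 was upregulated (3.45%, against 2.9% of all) and 1 downregulated, and of 30 on the opposite strand 1 was upregulated and 2 were downregulated. Of the 14 genes upregulated in the ovary, 11 had at most 10 reads in all 8 spleens together, with 0 to 4 summed over the wild-type and 0 to 6 over the L2-fKO libraries. A fall or a small change in these 11 was not detectable at this depth, and the tissues were not compared by a test. The 3 that were tested in the spleen were *Aen* (0.55, SE 0.14, edgeR adjusted p = 0.0263, under the fold limit), *Ifi203* (0.08, SE 0.42, edgeR adjusted p = 0.922) and *E330020D12Rik* (-0.22, SE 0.38, edgeR adjusted p = 0.735). *Ifi203* varied within groups, with normalized counts of 3453 in wild-type spleen 1 and 3855 in L2-fKO spleen 4 against group medians of 1496 and 1561. *E330020D12Rik* was also highest of each group in these libraries. 4632432E15Rik itself had 379 reads in the L2-fKO spleens.

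The genes most like 4632432E15Rik across libraries were ranked by Pearson's r of log2(normalized count + 1). Each r rests on 8 spleens or 6 ovaries that fall into the same genotype groups by which the gene was chosen, so it reflects that split and carries no p. In the spleen the closest were *Lexm* (r = 0.988), *Adamts4*, a protease that cuts aggrecan (0.985), *Elavl2*, an RNA-binding protein of neurons and germ cells (0.983), *Gm11639* (0.980) and *Usp44*, a deubiquitinase of mitosis (0.977).

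*Lexm* was at 1.24 ± 0.965 (SD, n = 4) normalized counts in wild-type and 31.3 ± 11.2 in L2-fKO spleen, and *Elavl2* at 2.99 ± 2.76 and 83.5 ± 31.9, so like 4632432E15Rik they were near 0 in wild type. *Usp44* and *Adamts4* had wild-type levels of 60.8 ± 11.8 and 140 ± 12. *Elavl2* was already at 4072 ± 225 in wild-type ovary, with 5912 ± 1624 in L2-fKO ovary, and *Gm11639* had a negative r of -0.660 there.

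In the ovary the closest were *Chst7*, a sulfotransferase (r = 0.997), *D630003M21Rik* (0.996), *Gtf2a1l*, a germ cell form of a general transcription factor (0.996), *Arhgap27*, a GTPase-activating protein (0.993), and *Cd300lf*, an inhibitory receptor of myeloid cells (0.991). Their ovary changes were smaller than that of 4632432E15Rik, from 0.25 for *Arhgap27* to 1.67 for *Cd300lf* on the log2 scale. In the spleen their r ran from -0.272 to 0.0179 for those tested, near or under 0.

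Genes alike in both tissues, ranked by the lower r of the pair over 15305 genes, were *Col4a2*, a basement membrane collagen (lower r = 0.935), *Nid2*, a basement membrane nidogen (0.928), *Cdr2l* (0.925), *Sfrp4*, a secreted Wnt inhibitor (0.924), and *Pdgfrb*, the PDGF receptor of pericytes and stroma (0.919). *Sfrp4* had log2 fold changes of 1.61 (SE 0.28) in the spleen and 1.45 (SE 0.24) in the ovary, and *Pdgfrb* had 1.15 (SE 0.13) and 0.63 (SE 0.08). *Col4a2* had 1.26 and 0.48, *Nid2* 1.29 and 0.37, and *Cdr2l* 1.17 and 0.25. All 5 had a higher wild-type level than 4632432E15Rik and smaller changes in both tissues.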

How the data were processed

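Per the paper's methods, the authors removed adapters with Trimmomatic 0.36, aligned the reads to GRCm38 with STAR 2.5.2b, and assigned uniquely mapped, strand-matched exonic reads to genes with featureCounts (Subread 1.5.2). The deposited spleen values are raw counts. The deposited ovary values are signal, counts divided by a size factor for each library, from which whole reads were recovered for 100% of values, to within 0.001 of a read. How ovary reads were counted is not given separately. The authors' comparison columns hold log2 fold changes and p-values and were not used.

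The spleen was fitted with edgeR 4.0.16 (quasi-likelihood, TMM, at least 10 counts in at least 4 libraries) and the ovary with limma 3.58.1 (trend) on log2(value + 1), at least 10 in at least 3 libraries, in R 4.3.3. Calls took Benjamini-Hochberg adjusted p-values under 0.05 with fold changes over 1 on the log2 scale in either direction. On simulated data with 200 genes changed by a log2 fold change near 2 in size, and the same dispersion set for every gene, edgeR found 196 (spleen) and limma 192 (ovary). Smaller changes were not simulated. Alternatives were DESeq2 1.42.0, other filters and pseudocounts, sex, a replicate block and leaving out libraries. Similar transcripts were found with BLAST 2.17.0. Each library came from 1 animal, and 13 animals gave the 14 libraries.

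The gene and lists were chosen with earlier results of these data known. Genes named are 4632432E15Rik, *Zfp36l2*, the 5 nearest tested genes on each side, neighbours within 1 Mb called in a tissue, and the 5 genes most alike in spleen, ovary and both. *Slc38a1*, the similar transcripts and the genes overlapping them were added after the data were seen. Genes within 5 Mb of *Zfp36l2* called in both tissues were also to be named, and *Zfp36l2* alone met this.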

Additional observations from a re-analysis of the deposited data

Results flagged for a closer look

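*Fabp5* differed between tissues: its ovary log2 fold change was lower than that in the spleen by a difference of -1.86 (SE 0.35, edgeR adjusted p = 0.00587 for genotype by tissue), with no overlap between the spleen groups. In that fit 1023 of 15310 genes had an edgeR adjusted p below 0.05 for this term.

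In groups of 4 spleens, a few libraries lay far from the others of their group. *Zfp704* was at 1100 normalized counts in wild-type spleen 3, the highest of its group. *Impa1* was at 2495 in L2-fKO spleen 4, the lowest of its group. *Gm8935* was at 1.01 in wild-type spleen 2, which is 1 read where the other wild-type spleens had 0. Chance alone marks about 1 in 20 such groups, and 28 groups were looked at.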

How the results depend on the processing

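4632432E15Rik was chosen for its rise, so only the size of its change is described over the alternatives tried. In the spleen its log2 fold change ran from 4.83 (prior count of 2, added after the data were seen) to 6.96 (without wild-type spleen 4). In the ovary it ran from 2.90 (pseudocount 10) to 3.83. Leaving out 1 library gave 5.54 to 6.96 in the spleen. The number of ovary genes called was 407 with DESeq2 and 268 with the replicate block, and 32 to 199 without 1 library. Leaving out 1 library gave 3 to 11 similar genes upregulated in the ovary and 0 to 1 in the spleen. The spleen neighbours called numbered 2 with DESeq2 and with no filter, and 1 to 2 without 1 library. Genes called within 5 Mb of *Zfp36l2* were 6 with male spleens only, and 1 in the ovary with DESeq2 and with the replicate block.

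The study describes the spleens as pairs matched for age, with littermate controls, but the labels do not say which animals form a pair or that a number marks one. The labels of wild-type spleens 3 and 4 both carry the number 3, and the number 4 was given here as a name only. By label number, both therefore went with L2-fKO spleen 3, and L2-fKO spleen 4 had no wild-type partner. Same-numbered spleen libraries had correlations of their deviations from -0.135 to 0.179, inside the range of differently numbered ones, -0.293 to 0.437. Same-numbered ovary libraries had correlations from 0.0723 to 0.382, all positive, against -0.326 to 0.184 for differently numbered ones. These ovary ranges lay higher for the same number but overlapped, so ovary pairs remain possible and so few libraries cannot decide it. The main fits took no libraries as pairs in either tissue. With the replicate block the log2 fold change of 4632432E15Rik was 6.18 in the spleen and 3.48 in the ovary, and *Pag1* (-0.015) and *Slc38a1* (-0.0052) changed sign in the spleen. L2-fKO spleen 4 was alone in its block, so it did not inform these spleen changes.

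Genes near 0 changed sign elsewhere too. *Zfp704* was at 0.0092 with no filter and 0.26 in males only, and *Impa1* at -0.0026 in males only. Without 1 spleen, *Zfp704* ran from -0.16 to 0.16, *Pag1* from -0.037 to 0.23 and *Chmp4c* from -0.17 to 0.33. Without 1 ovary, *Zfp704* ran from -0.17 to 0.13, *Pag1* from -0.26 to 0.086, *Fabp5* from -0.036 to 0.21, *Gm9833* from -0.14 to 0.049, *Impa1* from -0.28 to 0.049 and *Chmp4c* from -0.10 to 0.32. None of these was called, and the cause was not tested. In wild-type spleen 6 reads limit the fold of 4632432E15Rik.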
